A study of Mus musculus with 10 samples.

Results

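In fibroblasts given Myf5, 6265 stretches of chromatin were called as acetylated on histone H4 that were not called in the same fibroblasts given MyoD or GFP. They were short and weak peaks, they were richer in A and T than H4Ac regions called in any other combination of populations, and they lay at Myf5 peaks less often than those other regions. The regions were found by joining the peaks of 3 histone H4 acetylation (H4Ac) lists wherever they shared at least 1 bp, and by keeping those joined regions that held peaks of the Myf5 list and of no other. Of 45627 joined regions, 6265 met this rule, which is 13.7%. They were thus selected on the H4Ac calls themselves, so their H4Ac coverage is given as a description. Each of the 6265 consists of a single peak of the Myf5 list. The other classes are named in the same way: 6388 regions were called with MyoD only, 4792 with GFP only, 3786 with MyoD and Myf5, 2186 with GFP and Myf5, 3599 with GFP and MyoD, and 18611 in all 3 populations.

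All cells were mouse embryonic fibroblasts of the genotype MyoD-/-; Myf5-/-, so both factors came only from the virus and the GFP cells had neither. Cells were infected with lentivirus carrying MyoD, Myf5 or GFP, moved 24 h after infection to differentiation medium with insulin and transferrin, and harvested 20 h later. H4Ac was profiled by native ChIP-seq, without fixation: nuclei were cut with 15 U of micrococcal nuclease (MNase) for 18 min and precipitated with antibody 39925. MyoD and Myf5 were mapped by ChIP-seq after 11 min in formaldehyde, with antibodies 6975 and Sc-302x, and the title of each factor list names 2 replicates that share 1 list. Mock ChIPs used the same antibodies in GFP cells. An introduced factor in fibroblasts that lack the endogenous gene is a model of what the factor can do in these cells, not of a muscle precursor.

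MyoD and Myf5 are related basic helix-loop-helix transcription factors that bind short E-box sequences and direct cells to the skeletal muscle lineage. Acetylation of the H4 tail neutralises positive charge on the nucleosome and is a mark of open, active promoters and enhancers. MNase digests the linker between nucleosomes, so native ChIP recovers whole nucleosomes with their marks.

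There was 1 H4Ac list for each population, so population and library cannot be told apart and no value below has an error between replicates. Intervals in parentheses are exact 95% binomial intervals (Clopper-Pearson) unless another kind is named. They cover counting error only, and neighbouring regions are not independent. The lists give coverage only where a peak was called. A position not called in GFP or MyoD cells may therefore still carry acetylation, and the read depth of the libraries is unknown.

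The H4Ac signal of these regions sat close to the threshold of the list. Their maximum coverage, the highest read pile-up inside the peak, had a median of 26, with quartiles of 23 and 29 and extremes of 20 and 63. Each list has its own coverage cutoff for each of 5 bins of GC content, and maximum coverage over that cutoff had a median of 1.10, with quartiles of 1.04 and 1.21 and a highest value of 2.90. Exactly at the cutoff were 1383 regions (22.1%), and 21 reached at least 2 times the cutoff. The other 25776 peaks of the Myf5 list had a median of 1.52 times the cutoff and a median coverage of 39. Regions called with MyoD only and with GFP only each had a median of 1.10 times the cutoff of their own list, so weak signal was shared by all classes called in 1 population. Coverage in the control column of the list had a median of 4 (range 0 to 12), the same median as in the other peaks of the Myf5 list. At a mock peak lay 5 of the 6265 (0.08%), beside 0.12% of all joined regions.

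Width had a median of 234 bp, with quartiles of 166 and 326 bp and a range of 20 to 1382 bp, against 425 bp for the other peaks of the Myf5 list. The MyoD-only regions were shorter still, with a median of 170 bp, and the GFP-only regions were similar at 249 bp. Under 150 bp, about the DNA length wrapped in 1 nucleosome, were 1073 regions (17.1%). Of these, 931 (86.8%) were in the lowest GC bin.

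The limit of the rule cuts through peaks that are alike in strength. The 377 regions that ended 1 to 50 bp from a GFP or MyoD peak had a median of 1.10 times the cutoff, a coverage of 26 and a width of 212 bp. The 142 peaks of the Myf5 list that shared only 1 to 50 bp with a GFP or MyoD peak, and so fell outside the rule, had a median of 1.10 times the cutoff, a coverage of 25 and a width of 228.5 bp. In GC content they were not alike: 58.5% of the 142 peaks just outside the rule were in the lowest GC bin, against 34.5% of the 377 just inside it.

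The rule did not name GC content, but the calls it rests on used a coverage cutoff for each GC bin and list. The regions differed in GC content from each other class compared. In the lowest GC bin, at most 40% G and C, were 2484 regions, or 39.6% (38.4 to 40.9), beside 18.0% of all joined regions. The next bin, 40 to 45%, held 2348, the following bins held 1103 and 297, and 33 were above 55%. The lowest bin held 19.0% of GFP-only regions (17.9 to 20.1) and 16.7% of MyoD-only regions (15.8 to 17.6). The Myf5-only regions exceeded them by 20.7 percentage points (Newcombe 95% interval 19.0 to 22.3) and 23.0 points (21.5 to 24.5). Regions called with GFP and Myf5 followed at 26.9%, 12.8 points below (10.5 to 15.0). Regions called in all 3 populations stood at 11.2%, 28.5 points below (27.2 to 29.8).

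Properties of the Myf5 library moved with this result. In the whole Myf5 list 19.2% of peaks were in the lowest GC bin, beside 13.3% in the GFP list and 13.1% in the MyoD list. The whole Myf5 list includes the 6265 regions, and 14.3% of its other 25776 peaks were in the lowest bin. The cutoff of the Myf5 list in that bin was a coverage of 20, below the 21 of the GFP list and above the 19 of the MyoD list. In the 4 other bins the Myf5 cutoffs of 24, 27, 29 and 31 were at or above the GFP cutoffs of 24, 26, 28 and 30. Below the coverage that a GFP peak of the same bin needed were 617 regions, or 24.8% of those in the lowest bin. They are the regions of that bin exactly at the Myf5 cutoff of 20. The MyoD cutoffs in the 4 other bins were 21, 22, 24 and 26, below the Myf5 cutoffs. No peak of the Myf5 list could therefore fall below the MyoD cutoff of its bin. With those 617 left out the share in the lowest bin was 33.1%. With all H4Ac lists shortened to equal length it was 31.6%, beside 18.3% for GFP only and 19.0% for MyoD only. The part that library composition plays in the remaining gap was not tested.

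**Figure D1:**
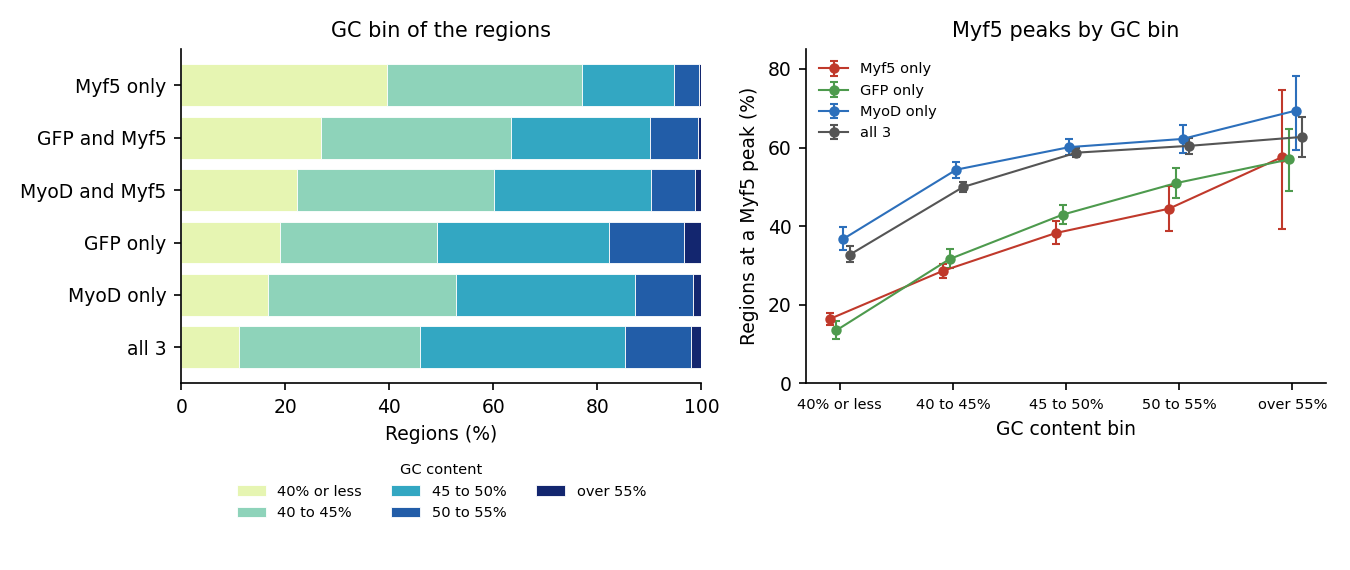
Left, percentage of H4Ac regions in each of 5 GC content bins, for 6 classes of region named by the populations in which they were called. Right, percentage of regions that overlap a Myf5 peak in each GC bin, with exact 95% intervals; the Myf5-only regions have the largest part in the lowest bin (39.6%), and their share at a Myf5 peak goes from 16.4% in the lowest bin to 57.6% in the highest, below the MyoD-only line in each bin.

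Most of the regions were not at a site where Myf5 itself was detected. A Myf5 peak overlapped 1652 of the 6265, or 26.4% (25.3 to 27.5), whereas 46.3% of all joined regions had one. The corresponding shares were 31.7% for GFP and Myf5, 35.6% for GFP only, 50.0% for MyoD and Myf5, 50.7% for GFP and MyoD, 54.5% for MyoD only and 53.1% for regions called in all 3 populations. The difference of the Myf5-only regions from the GFP-only regions was -9.19 points (Newcombe 95% interval -10.9 to -7.45), and from the MyoD-only regions -28.2 points (-29.8 to -26.5). The median widths of these classes, 234, 249 and 170 bp, differed, and the shares were not compared at equal width.

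MyoD peaks from the MyoD-expressing cells mark the sites that the related factor takes. They overlapped 868 of the regions, or 13.9% (13.0 to 14.7), beside 28.8% of all joined regions. GFP-only regions stood at 17.8% and MyoD-only regions at 40.9%. The differences from these were -3.90 points (Newcombe 95% interval -5.29 to -2.53) and -27.1 points. Against regions called with GFP and Myf5, at 14.3%, the difference was -0.46 points with an interval from -2.21 to 1.19, so no difference was detectable there.

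GC content moved with factor overlap in the 4 classes plotted by GC bin, and a comparison at equal GC composition was therefore made. Among the Myf5-only regions the share at a Myf5 peak was 16.4% in the lowest bin, then 28.6%, 38.3%, 44.4% and 57.6%. The share at a MyoD peak went the same way, from 9.46% to 36.4%. In the lowest bin the share at a Myf5 peak was above that of GFP-only regions, which was 13.5%, by 2.87 points (Newcombe 95% interval 0.11 to 5.43). In the next 3 bins the differences were -3.01, -4.67 and -6.49 points, and the interval of the last, -13.2 to 0.30, includes 0. MyoD-only regions stood at 36.7% in the lowest bin, and the difference from them there was -20.4 points (-23.6 to -17.1). Weighted to the GC bins of the regions called in all 3 populations, 33.6% of Myf5-only regions were at a Myf5 peak (32.1 to 35.2, normal interval), beside 37.0% of GFP-only and 56.0% of MyoD-only regions. The gap to GFP-only regions then narrowed to -3.38 points (-5.44 to -1.31), and that to MyoD-only regions was -22.3 points (-24.3 to -20.4). For MyoD peaks the lowest bin also went the other way, with 9.46% of Myf5-only and 5.71% of GFP-only regions, a difference of 3.75 points (Newcombe 95% interval 1.73 to 5.55). The weighted gap to GFP-only regions at MyoD peaks was -0.75 points, with an interval from -2.44 to 0.95 that includes 0.

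**Figure D2:**
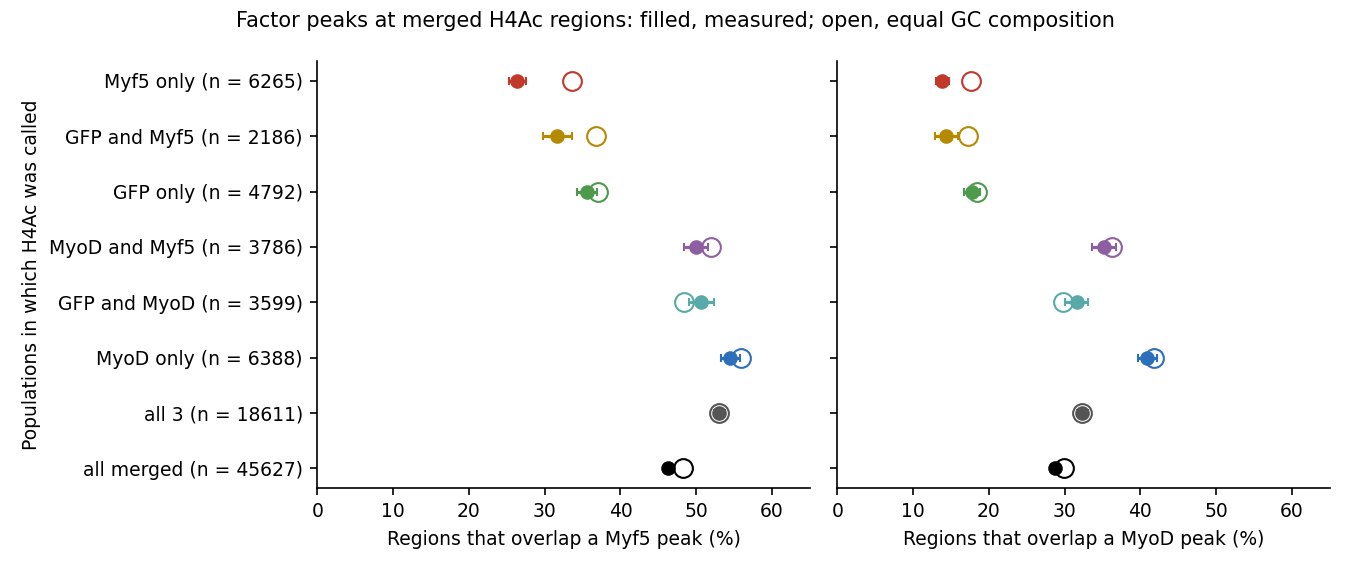
Percentage of H4Ac regions that overlap a Myf5 peak (left) or a MyoD peak (right) for each class of region, with exact 95% intervals on the filled points; open circles give the percentage after weighting each class to the GC bins of regions called in all 3 populations. The Myf5-only regions have the lowest measured share on both panels, 26.4% and 13.9%. After weighting they are at 33.6% and 17.7%, and on the MyoD panel the GFP and Myf5 class, at 17.2%, is then the lowest.

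Over all Myf5-only regions, the share with a factor peak was larger where H4Ac was stronger. At a Myf5 peak were 21.1% of the regions exactly at the cutoff, 24.8% of those up to 10% above it, 28.4% of those 10 to 25% above, 31.8% of those 25 to 50% above and 35.1% (28.9 to 41.7) of the 225 over 50% above. Of the 21 at 2 times the cutoff or more, 9 were at a Myf5 peak. The MyoD-only regions spanned a wider range over the same steps, from 42.3% to 85.6% (81.6 to 89.0). The GFP-only regions went from 26.6% to 44.8% (38.0 to 51.8), which overlaps the interval of the Myf5-only regions in the strongest step. For MyoD peaks the Myf5-only regions went from 10.7% to 18.7%. Median width went from 173 to 361 bp over the same steps. Within GC bins the pattern was not uniform: from the weakest to the strongest step the share at a Myf5 peak was 13.8%, 13.9%, 17.4%, 22.3% and 27.8% in the lowest bin, but 30.4%, 38.8%, 42.5%, 36.6% and 41.5% in the bin from 45 to 50% GC. Width moved with overlap too: of the shortest 20% of the regions (20 to 155 bp) 17.0% had a Myf5 peak, and of the widest 20% (348 to 1382 bp) 35.4%. The lowest GC bin held 82.9% of the shortest group and 10.9% of the widest, so width and GC content moved together.

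**Figure D3:**
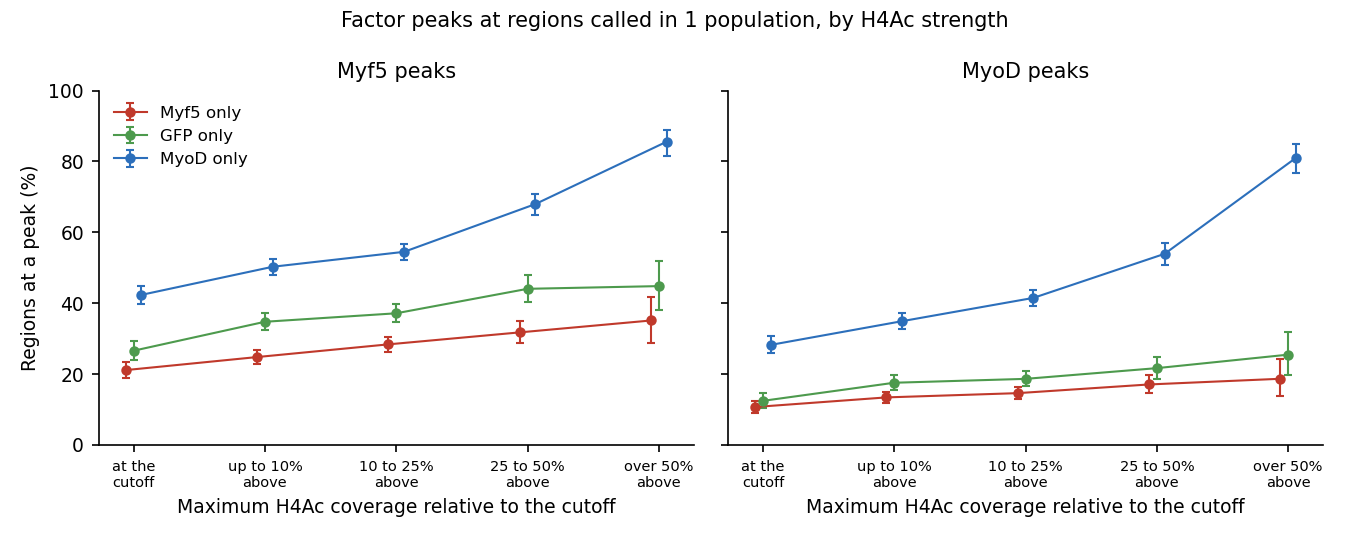
Percentage of regions at a Myf5 peak (left) or a MyoD peak (right), by how far the maximum H4Ac coverage exceeded the cutoff of its own list, for the classes called in 1 population, with exact 95% intervals. The Myf5-only regions go from 21.1% to 35.1% on the left panel while the MyoD-only regions go from 42.3% to 85.6%.

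Taking both factors at once, 818 regions (13.1%) had peaks of both, 834 (13.3%) had a Myf5 peak and no MyoD peak, 50 (0.80%) had a MyoD peak and no Myf5 peak, and 4563 (72.8%; 71.7 to 73.9) had neither. Of the regions with neither, 44.8% were in the lowest GC bin, and of those with both, 24.9%. Myf5 peaks at the 818 regions with both factors had a median coverage of 123, against 46 at the 834 with Myf5 alone. The whole Myf5 list had a median of 55, above the median at regions without a MyoD peak and below that at regions with both. The MyoD list is shorter, with 45015 peaks against 93787, so a site with no MyoD peak may still be bound by MyoD.

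The Myf5 peaks at the regions were of moderate strength within their list. Here and in the medians by factor content, each region counted once, with the strongest peak taken where several overlapped it. A peak on several regions therefore counted more than once. Coverage had a median of 73 with quartiles of 44 and 142. Of the 1652 regions, 257, or 15.6% (13.8 to 17.4), overlapped a peak of the strongest 10% of the list. At GFP-only regions the median was 62 and the share in the strongest 10% was 11.9%. At MyoD-only regions they were 173 and 43.0%, and at regions called in all 3 populations 77 and 19.0%. The centre of the Myf5 peak lay inside the region in 24.9% of cases, with a median offset of 266 bp between the centres. Read from the other side, 1586 of 93787 Myf5 peaks (1.69%) touched a Myf5-only region, and 242 of the 9426 in the strongest 10% (2.57%) did. For MyoD these were 824 of 45015 peaks (1.83%).

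The regions lay farther from factor peaks than H4Ac regions in general. Over all 6265, those at a peak counted as 0, the median distance, edge to edge, was 1698 bp to the nearest Myf5 peak and 6825 bp to the nearest MyoD peak, whose list is shorter. For GFP-only regions these medians were 742 and 5001 bp, and for MyoD-only regions 0 and 508.5 bp. For regions called with GFP and Myf5 they were 1411.5 and 6892 bp, so the distance to MyoD was not particular to the Myf5-only regions. Within 1 kb of a Myf5 peak were 43.9% of the Myf5-only regions and within 10 kb 80.0%, beside 60.4% and 86.8% of all joined regions, while 163 (2.60%) had none within 50 kb. For MyoD peaks the shares were 25.3% and 58.0%, beside 39.8% and 67.3% of all joined regions, and 606 regions (9.67%) had none within 50 kb. Among the 4613 regions that had no Myf5 peak on them, the median distance to one was 3998 bp and 23.8% had one within 1 kb. The 24504 joined regions with no Myf5 peak had a median of 3508 bp and a share of 26.3%. For the 5397 with no MyoD peak the median was 9617 bp, beside 8512 bp over all joined regions with none. Neither factor within 10 kb was the case for 1227 regions (19.6%), which had a median width of 198 bp, and 54.2% of them were in the lowest GC bin.

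**Figure D4:**
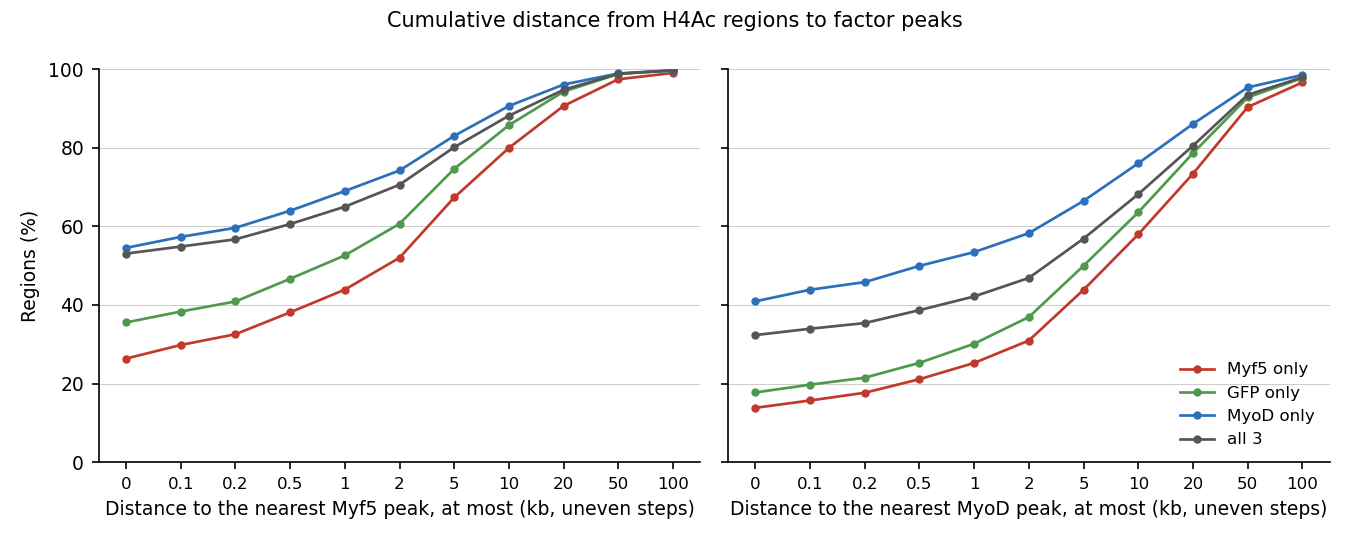
Cumulative percentage of H4Ac regions within a given distance, in kb on uneven steps, of the nearest Myf5 peak (left) and MyoD peak (right), for 4 classes of region. Of the 4 classes drawn, the Myf5-only line is the lowest at each distance. At 10 kb it is at 80.0% for Myf5 and 58.0% for MyoD, beside 85.7% and 63.6% for GFP only. Regions called with GFP and Myf5, not drawn, are at 81.5% and 58.1%.

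Neighbouring H4Ac regions of other classes were often close. The nearest H4Ac region of another class was at a median of 1466 bp (quartiles 196 and 15077 bp). It lay within 200 bp for 1599 regions (25.5%), within 1 kb for 2952 (47.1%) and beyond 10 kb for 1896. Of the 2952, the nearest neighbour was a region called in all 3 populations for 1417 (48.0%), a region called with MyoD and Myf5 for 442, MyoD only for 351, GFP and Myf5 for 304, GFP only for 281 and GFP and MyoD for 157. Regions called in all 3 populations made up 47.3% of all regions of the other classes, so their part among the nearest neighbours was close to their part in the whole set. The remaining classes departed from theirs. Regions called with MyoD and Myf5 were 15.0% of these neighbours and 9.62% of the other classes, and GFP and Myf5 10.3% and 5.55%. Lower among the neighbours were MyoD only (11.9% and 16.2%), GFP only (9.52% and 12.2%) and GFP and MyoD (5.32% and 9.14%). The share at a Myf5 peak was 30.1% within 200 bp of such a neighbour, 25.7% from there up to 1 kb, 22.0% from 1 to 10 kb and 27.0% beyond, so it was highest for the closest regions and lowest at middle distances.

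The regions also occurred in runs. When neighbouring Myf5-only regions at most 20 kb apart were joined into stretches, a distance chosen after the data were seen, 469 regions (7.49%; 6.85 to 8.17) fell into 62 stretches of at least 5. The longest stretch held 30. Of MyoD-only regions 4.51% (4.01 to 5.05) and of GFP-only regions 3.34% (2.85 to 3.89) were in such stretches, and their longest held 10 and 7. At least 10 regions were found in 13 stretches of Myf5-only regions, in 1 of MyoD-only and in 0 of GFP-only regions. Shorter runs were as common among MyoD-only regions. In stretches of at least 2 were 39.6% of Myf5-only, 40.8% of MyoD-only and 34.0% of GFP-only regions. For at least 3 the shares were 17.7%, 17.2% and 13.6%. With the lowest GC bin left out before joining, the order turned: 1.27% of the remaining Myf5-only regions were in stretches of at least 5, beside 1.52% of GFP-only and 2.87% of MyoD-only regions. This step removed 39.6% of Myf5-only, 19.0% of GFP-only and 16.7% of MyoD-only regions. The joining distance stayed the same, and the part that this unequal loss plays in the order was not tested.

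Stretches were AT-rich and poor in factor peaks. Of the 3787 regions that stood alone, 29.6% were in the lowest GC bin and 29.5% were at a Myf5 peak. In pairs 616 of 1368 were in the lowest bin and 25.2% at a Myf5 peak. In groups of 3 or 4 they were 59.6% and 20.7%, and in groups of 5 to 9 they were 74.2% and 15.7%. In stretches of at least 10 they were 83.0% and 6.59% (3.45 to 11.2). Among regions of the lowest GC bin alone, 36 of 364 in stretches of at least 5 were at a Myf5 peak, which is 9.89% (7.02 to 13.4), against 200 of 1122 that stood alone, 17.8% (15.6 to 20.2). At a MyoD peak were 15.1% of all regions that stood alone and 7.14% (3.86 to 11.9) of those in stretches of at least 10. Within the lowest GC bin the MyoD shares were 7.69% (5.17 to 10.9) in stretches of at least 5 and 9.45% (7.80 to 11.3) for regions that stood alone. These intervals overlap, so no difference in MyoD share was detectable in that bin. In the next bin, 5.68% (1.87 to 12.8) in stretches of at least 5 and 14.7% (12.9 to 16.5) standing alone were at a MyoD peak. The Myf5 shares there were 15.9% (8.98 to 25.2) and 30.1% (27.8 to 32.4). The bin after that held 14 regions in such stretches, and the bin above it 3. With the 14 the order turned, at 35.7% and 19.7% for MyoD and 42.9% and 38.8% for Myf5, with overlapping intervals. GFP-only regions in stretches of 5 to 9 were in the lowest GC bin in 72 of 160 cases and at a Myf5 peak in 25. Control coverage had a median of 3 or 4 in each stretch size of the Myf5-only regions.

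The most crowded 100 kb lay at chr6:36662782-36753374. It held 28 Myf5-only regions in 90.6 kb, 21 of them in the lowest GC bin. Their coverage ran from 20 to 30 with a median of 23, and 3 overlapped a Myf5 peak. The same stretch had 42 peaks of the Myf5 H4Ac list, 16 of the GFP list and 12 of the MyoD list, so acetylation was called there in each population, and it held 8 Myf5 and 6 MyoD peaks. The next was chr1:45326215-45408519, with 19 regions in 82.3 kb, all in the lowest GC bin and 0 at a Myf5 peak. Its lists had 28, 9 and 11 peaks for Myf5, GFP and MyoD. The third, chr1:165173749-165237198, held 17 regions, 9 in the lowest bin, and its lists had 37, 22 and 33 peaks.

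**Figure D5:**
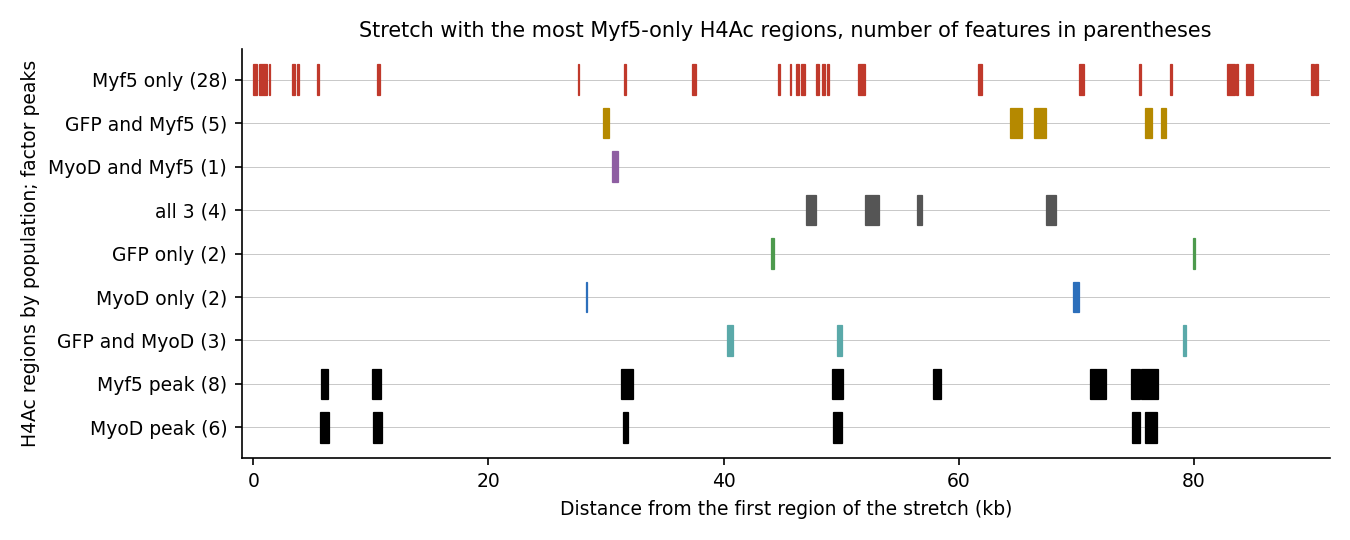
Map of the stretch on chromosome 6 with the most Myf5-only H4Ac regions; the x axis is the distance in kb from its first region, and each row shows 1 class of H4Ac region or the peaks of 1 factor, with the number of features in parentheses. The 28 Myf5-only regions are spread over 90.6 kb among 17 regions of other classes, 8 Myf5 peaks and 6 MyoD peaks.

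Across chromosomes the regions were spread over all 19 autosomes and X. They made up 9.58% (8.36 to 10.9) of the joined regions of chromosome 8 and 20.0% (17.2 to 23.0; 156 of 781) of those of X, the lowest and highest shares. Chromosome 3 had 17.3% (15.9 to 18.8), chromosome 11 had 11.0% and chromosome 17 had 11.4%. MyoD-only regions took 14.6% of the regions of X and GFP-only regions 7.30%. X and chromosomes 17 and 18 had 0 regions in stretches of at least 5. The share of the regions in the lowest GC bin ran from 19.9% on chromosome 7 to 56.5% on chromosome 16.

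Of the 10 regions with the highest coverage over cutoff, 6 lay within 500 bp of an H4Ac region that other populations had. Over all Myf5-only regions, 2546 (40.6%) did, and 10 regions are too few to tell these shares apart. At chr14:32599376-32599983 coverage reached 58 over a cutoff of 20, and a Myf5 peak lay 6 bp and a MyoD peak 91 bp away. At chr2:45603761-45604008 coverage was also 58 over 20, under a Myf5 peak of coverage 743 and a MyoD peak of coverage 348, and a region called in all 3 populations lay 154 bp away. The region with the highest coverage, 63 over a cutoff of 24 at chr10:69094296-69094916, had its nearest Myf5 peak at 1961 bp and a region called in all 3 populations at 75 bp. At chr3:130412394-130412557 coverage was 61, with such a region at 77 bp and the nearest Myf5 peak at 5565 bp. A Myf5 peak overlapped 5 of the 10. They included chr1:162461834-162462093, with H4Ac coverage 49, Myf5 coverage 323 and MyoD coverage 160, whose nearest other H4Ac region was 9546 bp away.

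The 5 regions with the strongest Myf5 peaks had H4Ac coverage of 1.07 to 1.23 times the cutoff, beside a median of 1.10 over all 6265. The highest Myf5 coverage at a region, 1362, was at chr10:52120677-52120909, where H4Ac coverage was 23 over a cutoff of 20 and MyoD coverage was 660. At chr17:53736304-53736804 Myf5 coverage was 1312 and H4Ac coverage 28 over 24, and a MyoD-only H4Ac region lay 114 bp away. At chr4:64101813-64102071 the values were 1299 for Myf5, 298 for MyoD and 23 for H4Ac. At chr10:79622081-79622525, in the highest GC bin, they were 1034, 449 and 38. Each of the 5 also had a MyoD peak.

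Other regions were far from either factor or had only MyoD there. At chr7:6387741-6388238 H4Ac coverage was 53 over 24, and the nearest Myf5 and MyoD peaks were 76379 and 76451 bp away. At chr4:26274706-26275156 coverage was 38 over 20 with the nearest Myf5 peak 261138 bp and the nearest MyoD peak 281661 bp away, yet a region called in all 3 populations was at 190 bp. A MyoD peak of coverage 119 lay on chr16:82431621-82431899, where H4Ac coverage was 32 and a Myf5 peak lay 51 bp away. The strongest of the 50 regions with a MyoD peak and no Myf5 peak was chr12:58277336-58277557, with H4Ac coverage 51, MyoD coverage 31 and the nearest Myf5 peak at 2839 bp. The widest region, chr9:102629126-102630507, measured 1382 bp and stood exactly at its cutoff of 29, under a Myf5 peak of coverage 79 and a MyoD peak of coverage 38.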

How the data were processed

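Peak lists of 7 of 10 samples were used: 3 of H4Ac, 2 of the factors and 2 mock lists. The 3 input samples have no list here. Each deposited list gives a peak's position, width, maximum coverage signal, coverage cutoff, GC bin and control coverage signal, and a p-value and a control score, per the file headers. The authors' p-values and control scores decide no result. The submitters' processing notes list BWA 0.7.5, CASAVA 1.8.2 and the builds mm9 and hg19, with no role for any of them. Coordinates are read as mm9, 1-based. Which peak caller was used, and how its cutoffs were set, is not given in the sources used here.

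Peaks of the H4Ac lists that shared 1 bp were joined. A region of several peaks took the GC bin and coverage of the peak highest over its cutoff. Overlap with a factor means 1 bp shared, and distances are edge to edge. Shares carry exact binomial intervals, differences of shares Newcombe intervals, and GC-weighted shares normal intervals, all at 95%. No test across replicates was possible with 1 list per group. Python 3.11.15, pandas 2.3.3, numpy 2.4.6 and scipy 1.17.1 were used, and the joining, overlap and distance steps were tested on simulated intervals. Alternatives tried were other joining distances, equal list lengths, coverage thresholds, mock regions or X left out, other overlap rules, and GC weighting. Positions described singly were the 10 strongest regions, the strongest by factor content, those with the strongest Myf5 peaks, the widest, and the 3 densest stretches, of which the text gives a part.

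The regions, classes and lists were chosen with earlier results of these data known. Nearest genes, sequences and E-box counts need an mm9 genome and annotation and are not analysed here.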

Additional observations from a re-analysis of the deposited data

How the results depend on the processing

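Against 6265 regions, joining H4Ac peaks within 500 bp left 3330, and keeping those at least 25% above the cutoff left 1336. The median coverage over cutoff (1.10) became 1.12 with H4Ac lists of equal length and 1.33 at 25% above. Median width (234 bp) became 243 bp with peaks joined within 200 bp, 256 bp with equal lists and 309 bp at 25% above. Under the same 3 settings the median distance to a Myf5 peak (1698 bp) became 2143, 1346 and 1321.5 bp, and to a MyoD peak (6825 bp) 7630.5, 6244 and 7371 bp.

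The share at a Myf5 peak (26.4%) became 25.2% with joining within 500 bp, 28.9% with equal H4Ac lists, and 30.8% and 33.2% at 25% and 50% above the cutoff. It was 25.2% with at least 50 bp shared, 38.1% with a peak within 500 bp, 16.4% with the stronger 50% of the factor list, 15.9% with equal factor lists and 33.6% with GC weighting. The share at a MyoD peak (13.9%) became 12.9% and 12.6% with joining within 200 and 500 bp, 15.5% with equal H4Ac lists, 16.9% and 18.8% at 25% and 50% above, 12.8% with 50 bp shared, 21.1% within 500 bp, 7.73% with the stronger 50% of the list and 17.7% with GC weighting. The share in the lowest GC bin (39.6%) became 31.6% with equal lists and 42.0% at 25% above.

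Chosen after the data were seen, leaving out stretches of at least 5 gave 27.5% at Myf5 peaks and 36.6% in the lowest GC bin. Leaving out regions under the GFP cutoff gave 27.7% at Myf5 peaks, 14.7% at MyoD peaks and 33.1% in the lowest GC bin. The share in stretches of at least 5 (7.49%) became 4.37% at 10 kb, 12.7% at 50 kb and 1.27% without the lowest GC bin. Except where the size follows from the setting itself, as with fewer regions or peaks kept, the cause was not tested. The other 23 values moved by less than their interval, or by less than 1.5 times for counts. Under other joining distances and equal lists, the Myf5-only regions had a lower share at Myf5 and MyoD peaks than GFP-only and MyoD-only regions, and a higher share in the lowest GC bin. No paired analysis was possible because each group has 1 list. Read depth is unknown, so a region not called in GFP or MyoD cells may lie just under their cutoffs.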
